A study of Mus musculus with 2 samples.

Results

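Splicing factors and other RNA-binding proteins of the mouse gastrocnemius, the large calf muscle, were compared between mice with a hindlimb held still in a plaster cast and control mice. The members were all array probes that are not controls and whose gene name belongs to the SR proteins (Srsf or the older Sfrs, with Tra2), the hnRNPs (Hnrnp or Hnrp), the Rbm genes, or the Mbnl, Celf (Cugbp), Rbfox (A2bp1), Ptbp and Khdrbs genes. This gave 137 probes for 91 genes, of 24747 genes on the array, and 29 of the 91 had an older name on the array. On both arrays, 83 of the 91 genes had a probe that the scanner software called well above background, and only these count as measured. The other 8 had none on either array, and they were Khdrbs2, Mbnl3, Rbm11, Rbm31y, Rbm44, Rbm46, Srsf12 and Tra2b. Across all genes, 14823 were measured.

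The mice were male C57BL/6 animals aged 9 weeks. In the cast group the hindlimb muscles were unloaded with plaster for 11 days, and the control group had no cast. The labels name no other treatment and no altered allele. Pooling within a group is stated with N = 6, taken here to mean RNA of 6 mice per pool, and hybridised as Cy3-labelled cRNA to 1 Agilent 1-colour whole mouse genome array. Each group was thus n = 1 array. No value has a p-value, a pool hides the spread between mice, and precision is limited by having 1 array on each side.

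A messenger RNA precursor is cut and rejoined by the spliceosome, and RNA-binding proteins set which exons are kept. SR proteins carry RNA recognition motifs and a tail rich in serine and arginine, and bound to exons they mostly promote inclusion. hnRNPs coat nascent RNA and often oppose them, although both act in either direction depending on where they bind. Skeletal muscle has its own set of regulators. Muscleblind proteins (Mbnl) and Celf proteins act on many of the same exons in opposite ways, and trapping of Mbnl proteins on expanded CUG repeats underlies myotonic dystrophy. Rbfox proteins bind next to muscle exons, Rbm20 controls the splicing of titin, and Rbm24 acts in the formation of heart and skeletal muscle. Many SR protein genes hold a poison exon, which leads the transcript to decay and by which the protein limits its own level.

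Signals are given as scaled signal, in which the 75th percentile of an array is 100, and differences as log2(cast/control) of the scaled signals. Beside each stands a spot-level SD, taken from probes printed several times, which holds spot error alone and leaves out mice and hybridisations. A scaled signal is compared between arrays for 1 probe. Separate probes are set side by side only to rank them as bright or dim. Sums over cell type markers add separate probes, so the brightest weigh most in them. In whole muscle, fewer cells that hold a transcript and less of it per cell cannot be told apart.

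Most members differed little between the arrays. Their median log2 ratio was 0.11, the middle 50% of them lay between -0.12 and 0.28, and 53 of 83 (63.9%) were above 0. Over all measured genes the median was -0.03, the middle 50% lay between -0.27 and 0.23, and 47.1% were above 0. The spread between members (SD 0.38) was below that between all genes (SD 0.48). Members were mostly bright, 64 of 83 being at or above the median level. For all genes at or above that level the median was 0.01, against 0.08 for these 64 members. The SD between all genes at or above that level was 0.45, and 51.1% of them were above 0.

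Higher in cast by 1.5-fold or more were 4 members, Rbm3, Srsf10, Rbm20 and Hnrnpu, where 7.03% of all measured genes were past that fold in that direction. At least 1.5-fold lower were 3 members, Hnrnph3, Khdrbs3 and Srsf11, against a background of 8.2%. Past 2-fold were 1 member above (Rbm3, background 2.22%) and 1 below (Hnrnph3, background 2.1%). In all, 8.43% of the members and 15.2% of the genes were past 1.5-fold, with 13.9% for genes at or above the median level. Large differences were thus no more frequent here than on the array at large.

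A log2 ratio of 0 here means equal signal after both 75th percentiles are set level. Left unscaled, the median of all genes moved from -0.03 to 0.31, and set on 7 spike-in controls it moved to 0.32. The members moved with it, so that without scaling 24 were past 1.5-fold upwards and 1 downwards, and on the spike-in scale 25 and 1. All genes then stood at 23.6% and 24.4% higher, and at 2.66% and 2.58% lower. Both settings shift every log2 ratio by 1 constant. The distance between the members' median and that of all genes therefore stayed at 0.14 by construction. With quantile normalization and with a loess fit, which are not such shifts, it was 0.11. Of 83 members, 59 kept their sign under all 6 scalings tried and 24 did not. These 24 lie between -0.33 and 0.07, and those described below are given with the turned value or a remark.

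**Figure D1:**
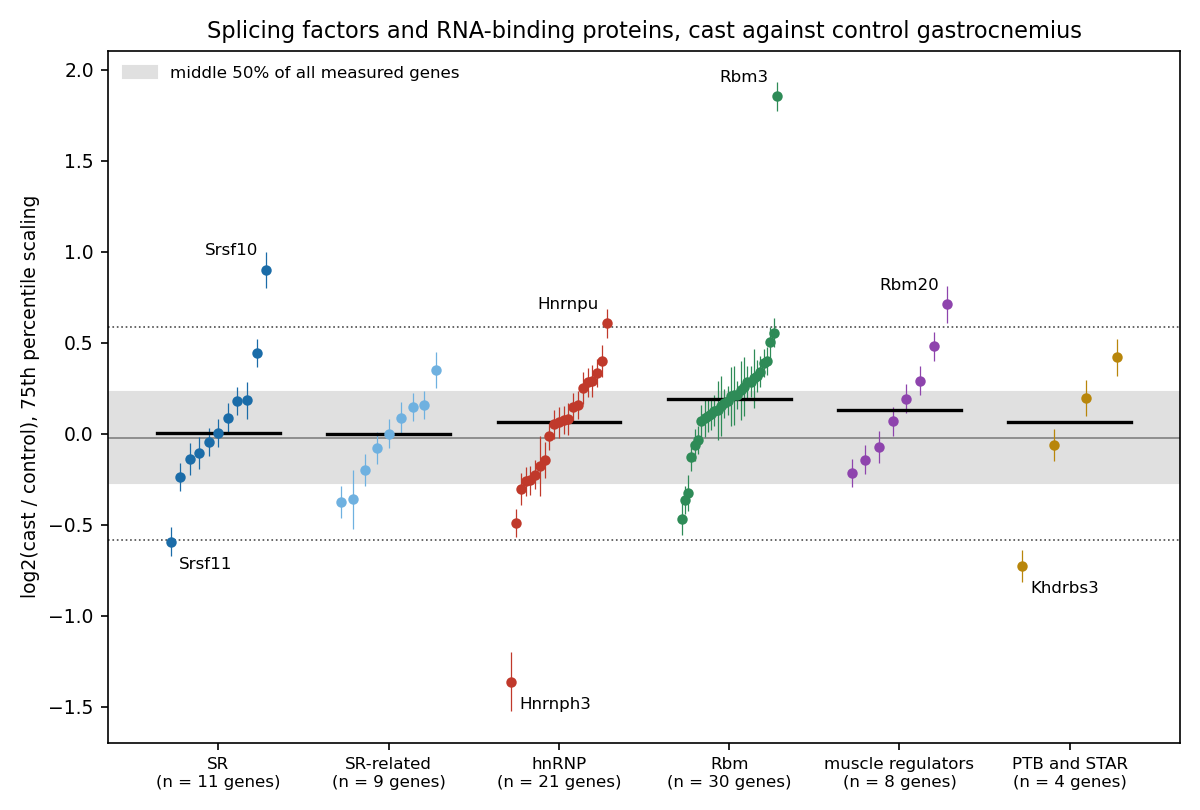
Log2(cast/control) of the 83 measured members by group, 1 point per gene, with the spot-level SD as error bar and the group median as black line. Dotted lines mark 1.5-fold, and the grey line and band show the median and the middle 50% of all measured genes. Rbm3 stands highest at 1.85 and Hnrnph3 lowest at -1.36, and points near 0 can change sign with the scaling.

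The Rbm genes are a family defined by the RNA recognition motif and varied in function. Of 30 measured, 24 were above 0 (80%, against 47.1% of all genes), with a median of 0.19. With normexp background correction the median was 0.13, the dim Rbm41, Rbm47 and Rbm4b fell below 0, and Rbm10 rose above it. The largest difference of all members was that of Rbm3, a cold-inducible protein that binds RNA and supports translation at lowered temperature. Rbm3 had a scaled signal of 1261 in control and 4554 in cast, which is 3.61-fold higher (log2 ratio 1.85, spot-level SD 0.08). Of all measured genes, 99.5% had a lower log2 ratio. A second probe, 1129 bases upstream on the transcript strand, gave 675 and 2429, the same log2 ratio of 1.85. Under the scalings tried the value lay between 1.77 and 2.20, so it stayed past 2-fold in each.

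The probes that carry this result lie on the minus strand of chromosome X, at chrX:7719656-7719715 and chrX:7720785-7720844 of mm9, the build in the file headers. A further probe, at chrX:7718033-7718092 and thus the most downstream, stayed near background on each array (scaled signals 1.07 and 1.25). Shown are the first 30 of the 60 bases of each, 5′ to 3′, in lower case because no base is singled out. No mm9 gene model was used here, so exon, intron and UTR positions of probes are not given.
Rbm3 brightest probe: atggccagaaagtgatttctgaatgtacct
Rbm3 upstream probe: atgacagtcgtcctggaggatatggatatg
Rbm3 dark downstream probe: agttggatggttttctagctgtgtgtgtat

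Cirbp, the other well-known cold-inducible RNA-binding protein and a close relative of Rbm3, is no member by name but belongs to the list of other splicing regulators. Its scaled signal was 780 in control and 2064 in cast. The log2 ratio was 1.40 (spot-level SD 0.08), a 2.65-fold difference, and 1.34 to 1.75 across the scalings. Both cold-inducible genes were higher on the cast array. No temperature is recorded in the labels, and a part of temperature in these values was not tested.

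The remaining Rbm genes stayed within 1.5-fold. Next after Rbm3 came Rbm8a (Y14), a core protein of the exon junction complex, whose signal was 272 in control and 400.0 in cast (log2 ratio 0.55, spot-level SD 0.08). Rbm12 gave 85.5 and 121 (0.50), although a second, downstream probe of it gave -0.13. Scaf8, on the array as Rbm16, binds the tail of RNA polymerase II, and gave 261 and 344 (0.40). Rbm17 (SPF45), a protein of the spliceosome, gave 396 and 518 (0.39). By their brightest probes these 4 were higher on the cast array under each scaling, and the mean over the probes of Rbm12 was 0.18.

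At the other end of the Rbm genes stood Rbm38, a target of p53 that binds the transcripts of cell cycle and muscle differentiation genes. Its signal was 292 in control and 211 in cast (log2 ratio -0.47). Rbm28, a nucleolar protein, gave 635 and 493 (-0.37). Rbm43 gave 42.2 and 33.7 (-0.33), but came to 0.01 unscaled and 0.02 on the spike-in scale. Rbm18 (-0.13) and the coactivator Rbm14 (-0.06) were likewise above 0 on those scales. The brightest probes of Rbm14 and Rbm26 were printed on 10 spots each, and their log2 ratios (-0.06 and 0.07) are means over these. From their own spots the SD for a single spot was 0.07 and 0.06. The spot error of a mean over 10 spots is smaller than that. A second, dimmer probe gave -0.53 for Rbm14 and -0.07 for Rbm26, so the means over probes were -0.29 and 0.00056.

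The muscle regulators, 8 of 9 genes measured, had a median of 0.13 and 5 values above 0 (62.5%, against 47.1% of all genes). Rbm20, the titin splicing regulator, gave 32.6 in control and 53.3 in cast, a 1.64-fold difference (log2 ratio 0.71, spot-level SD 0.10). Its second probe gave 16.6 and 20.5 (0.30), below 1.5-fold, and the mean of both was 0.51. With normexp background correction Rbm20 also came to 0.51, short of 1.5-fold. The first probe spans an intron, since its 60 bases cover chr19:53909212-53915470 of mm9, and the second lies downstream at chr19:53940144-53940203, both on the plus strand. Their first 30 bases are shown because the call depends on which of them is read.
Rbm20 junction probe: caatggcgagaagttactcattcgcatgtc
Rbm20 downstream probe: ttagtggaaggtcttaggacaggggtacta

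Both Rbfox genes were above 0. Rbfox2 (Rbm9 on the array) gave 319 in control and 444 in cast (log2 ratio 0.48, spot-level SD 0.08), and its second probe gave 0.25. Rbfox1 (A2bp1 on the array), known from skeletal muscle, heart and brain, gave 6026 and 6882 (0.19), and its second probe gave 0.36. Across the scalings Rbfox1 ranged from 0.05 to 0.54. Rbm24 gave 2562 and 2684 (0.07), and with a quantile or loess fit it could fall to -0.02, so it has no settled direction.

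Of the muscleblind genes, Mbnl1 had 1 measured probe and Mbnl2 had 3 that differed. Mbnl1, the main muscleblind of adult muscle, gave 1542 in control and 1886 in cast (log2 ratio 0.29, spot-level SD 0.08). For Mbnl2 the brightest probe gave 1833 and 1659 (-0.14, but 0.19 with no scaling), and the most downstream probe gave 259 and 257 (-0.01). The upstream probe of Mbnl2 gave 122 and 222, a log2 ratio of 0.86. The 3 probes of Mbnl2 therefore ranged over 1.01 log2 units, and the mean over them was 0.24. They lie on the plus strand of chromosome 14, at chr14:120803865-120803924, chr14:120828398-120828457 and chr14:120829956-120830015 of mm9, and their first 30 bases show which stretch of the transcript each one reads.
Mbnl2 upstream probe: atgatgcacagcgctacgtccgccactgtc
Mbnl2 brightest probe: accagctgtgatgttcgaagacatacagga
Mbnl2 downstream probe: aatttgtggaaaggtattgtatctaacttg

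Celf1 and Celf2, on the array as Cugbp1 and Cugbp2, were the muscle regulators below 0 beside Mbnl2. Celf1 gave 116 in control and 110 in cast (log2 ratio -0.07, or 0.26 with no scaling). Celf2 gave 1500.4 and 1291 (-0.22, or 0.12 with no scaling). All 3 probes of Celf2 lay within 0.02 of each other, at -0.22, -0.20 and -0.19. Celf2 thus lay below the median of all genes by each of its probes, yet within the middle 50% of all genes.

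Among the polypyrimidine tract-binding proteins, repressors of tissue-specific exons, Ptbp1 gave 81.9 in control and 93.8 in cast (log2 ratio 0.20). Ptbp2, best known from neurons, gave 37.6 and 50.3 (0.42, spot-level SD 0.10). Both kept their sign with every scaling. Of the STAR proteins, RNA-binding proteins with a KH domain, Khdrbs1 (Sam68) gave 299.5 and 286 (-0.06, or 0.27 with no scaling). Khdrbs3 (T-STAR) gave 218 and 131, a 1.66-fold lower signal (log2 ratio -0.73, spot-level SD 0.09). Khdrbs3 stayed below 0 with every scaling, reaching -0.38 with spike-in scaling, which is short of 1.5-fold.

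**Figure D2:**
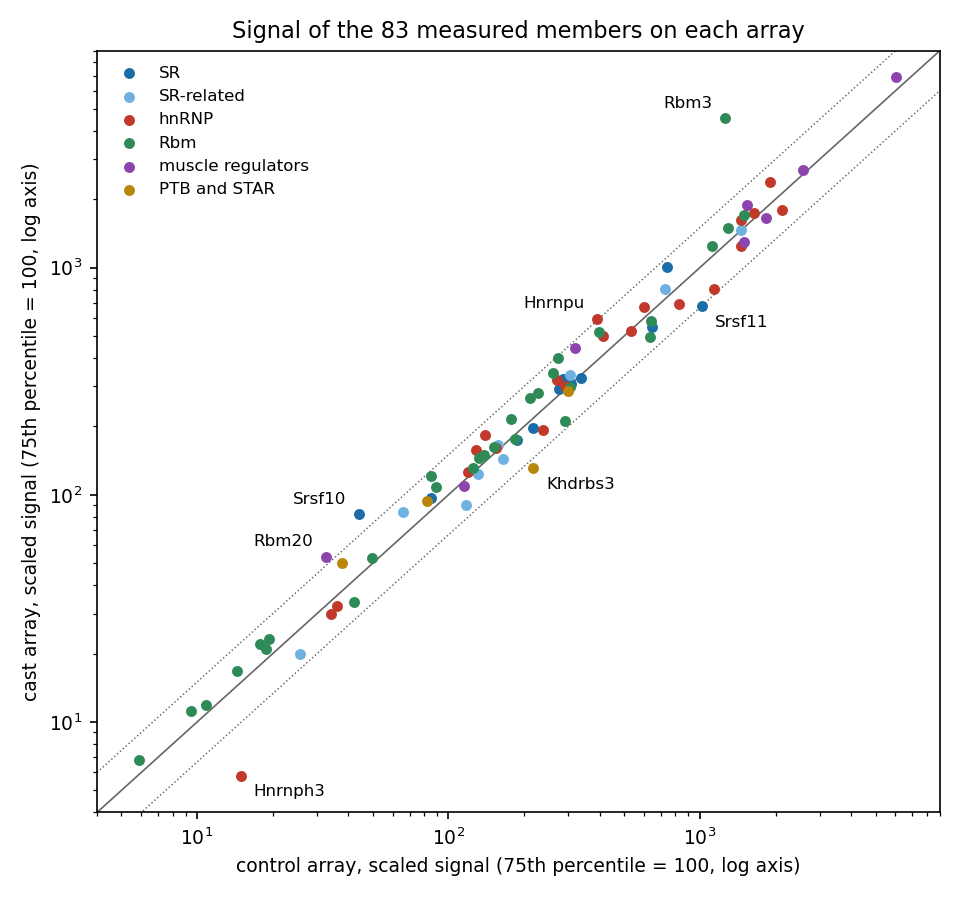
Scaled signal of the 83 measured members on the control array (x axis) and the cast array (y axis), both log axes, 1 point per gene coloured by group. The solid line marks equal signal and the dotted lines 1.5-fold; the 7 named genes lie outside the dotted lines, and Hnrnph3, at 15.0 and 5.81, is among the dimmest members.

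The SR proteins and their relatives showed no common shift. The 11 measured SR genes had a median log2 ratio of 0.0024, with 6 above 0 (54.5%, against 47.1% of all genes). The 9 SR-related genes had -0.00047, with 4 above 0 (44.4%). Both medians change sign with the scaling. At the ends lay Srsf10, a splicing repressor when dephosphorylated, and Srsf11. Srsf11 gave 1020.4 in control and 676 in cast, a 1.51-fold lower signal (log2 ratio -0.59, spot-level SD 0.08), just past the threshold. It reached -0.25 with spike-in scaling and -0.53 with normexp background correction, both short of 1.5-fold.

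Srsf10 was high by its brightest probe, which gave 44.0 in control and 82.0 in cast, a 1.87-fold difference (log2 ratio 0.90, spot-level SD 0.10). The upstream probe gave 5.60 and 7.14 (0.35), and the downstream probe gave 20.1 and 16.3 (-0.31). The upstream one was dim, near the lowest signals called well above background (3.40 in control and 4.23 in cast). The mean of the probes was 0.31, and by that mean Srsf10 was no longer past 1.5-fold. The probes lie within 5383 bases of the plus strand of chromosome 4, in mm9 at chr4:135419928-135419987, chr4:135424198-135424257 and chr4:135425311-135425370. Their first 30 bases are printed because they read 1 gene and disagree in sign.
Srsf10 upstream probe: ccagtggccactgatagtataaattatgat
Srsf10 brightest probe: gaaagtgtttaccggatacgactttttagt
Srsf10 downstream probe: tactaaaagtagatttaaagtgtattccag

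The largest step within a gene was that of Srsf7 (9G8), an SR protein that also takes part in RNA export. The upstream probe of Srsf7 gave 285 in control and 322 in cast (log2 ratio 0.18, spot-level SD 0.08). The downstream probe, 436 bases away, gave 48.8 and 23.7 (-1.04). By the brightest probe Srsf7 was slightly higher on the cast array, and by the other it was more than 2-fold lower; the mean of both was -0.43. The probes lie on the minus strand at chr17:80600741-80600800 and chr17:80600305-80600364 of mm9. Their first 30 bases are the stretches behind this split.
Srsf7 upstream probe: ggatcatcaaccatctaatcaaaatggatc
Srsf7 downstream probe: ggaattgtcaagcttagagggaccactgat

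Of the other SR genes, Srsf5 (SRp40) gave 743 in control and 1010.5 in cast (log2 ratio 0.44), and Srsf2 (SC35) gave 85.6 and 97.1 (0.18). Tra2a, a partner of SR proteins at exonic enhancers, gave 644 and 545 (-0.24, or 0.10 with no scaling). The remaining SR genes (Srsf1, Srsf3, Srsf4, Srsf6 and Srsf9) lay between -0.14 and 0.08 by their brightest probes, and 4 of the 5 (all but Srsf1) change sign with the scaling. Other probes gave larger values for 3 of them. Srsf1 gave 0.51 and 0.34 by its other probes (mean of its 3 probes 0.31), Srsf3 gave -0.14 and -0.53 (mean -0.24), and Srsf6 gave 0.34 (mean 0.12, the other sign). Among SR-related genes, Sfswap, the relative of the fly regulator suppressor-of-white-apricot, gave 66.2 and 84.3 (0.35). Srek1ip1, which binds the splicing protein Srek1, gave 117 and 90.5 (-0.38), and its second probe gave -0.50. Akap17b, on the array as Sfrs17b, gave 25.6 and 20.0 (-0.36), and Sugp2 gave 165 and 144 (-0.20, or 0.13 with no scaling).

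All 21 hnRNP genes were measured, 12 of them above 0 (57.1%, against 47.1% of all genes), with a median of 0.06. Hnrnpu, a nuclear scaffold protein that binds RNA and chromatin, gave 391 in control and 595 in cast, a 1.52-fold difference (log2 ratio 0.61, spot-level SD 0.08). Across the scalings Hnrnpu lay between 0.59 and 0.95. Its relative Hnrnpul1 gave 140 and 184 (0.40), and the upstream probe of Hnrnpul1 gave 0.81. The mean of both probes was 0.61, past 1.5-fold. Hnrnpll, known for exon choice in lymphocytes, gave 129 and 158 (0.29). Hnrnpd (AUF1), which binds AU-rich elements, gave 412 and 501 (0.28). These genes were higher on the cast array under each scaling.

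Hnrnph3, of the H and F group whose relatives bind G-rich RNA, had the lowest log2 ratio of the members, with 15.0 in control and 5.81 in cast (2.57-fold lower, log2 ratio -1.36, spot-level SD 0.16). Its single probe was dim, close to the lowest signal called well above background on the cast array, which was 4.23. With normexp background correction the log2 ratio was -0.63, and the gene was no longer past 2-fold. The relatives Hnrnph1 (-0.23), Hnrnph2 (0.08) and Hnrnpf (0.16) did not share its difference, and that of Hnrnph1 changes sign with the scaling. The probe lies on the minus strand at chr10:62477445-62477504 of mm9 and is shown since no second probe reads this gene.
Hnrnph3 probe: ggatcaaaatgaacctgtcagtgtgatctc

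The A, B and C proteins form the core of the particles on nascent RNA. Hnrnpa2b1 gave 1136 in control and 807 in cast (log2 ratio -0.49, spot-level SD 0.08), and it stayed below 0 with every scaling. Its second probe gave -0.72 but was dim, at 10.8 and 6.55, and the mean of both was -0.61, past 1.5-fold. Hnrnpa1 gave 237 and 192 (-0.30), while its second probe gave 0.04. Hnrnpc gave 826 and 688 (-0.26), with -0.44 by its second probe, and Hnrnpdl gave 2131 and 1783 (-0.26). For Hnrnpa1, Hnrnpc and Hnrnpdl the sign turned with no scaling, to 0.03, 0.07 and 0.08. Hnrnpa3 was the member with most probes, and its brightest gave 1893 and 2383 (0.33). The 7 probes of Hnrnpa3 ranged from -0.34 to 0.33, and their mean was 0.09. Hnrnpa1 and Hnrnpa3 have near copies elsewhere in the genome, as Rbm4 has in Rbm4b and Rbm12b1 in Rbm12b2, so probes of these genes can share signal and their values are less certain than the SD shows.

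At least 2 measured probes were available for 30 members, and they allow the same gene to be read at separate positions. The median range between probes of a member was 0.20 log2 units, against 0.18 for the 3494 genes with several probes. A range of at least 0.5 was found for 5 members (16.7%, against 15.8% of genes), namely Srsf7, Srsf10, Mbnl2, Hnrnpa3 and Rbm12. Probes differed in sign for 9 of the 30, against 27.3% of genes. In 2 members (Srsf10 and Hnrnpa3, 6.67%, against 2.43%) they lay at least 0.3 on either side of 0. The most downstream probe was the lower one in 15 of 30 members, against 50.9% of genes, so there was no common tilt along the transcript. By size of the downstream minus upstream difference, Srsf7 (-1.22), Mbnl2 (-0.88), Srsf10 (-0.66) and Rbm12 (-0.63) led, and all 4 were lower downstream. The array does not tell which isoform a probe binds, and 7 of the 137 probes span an intron.

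**Figure D3:**
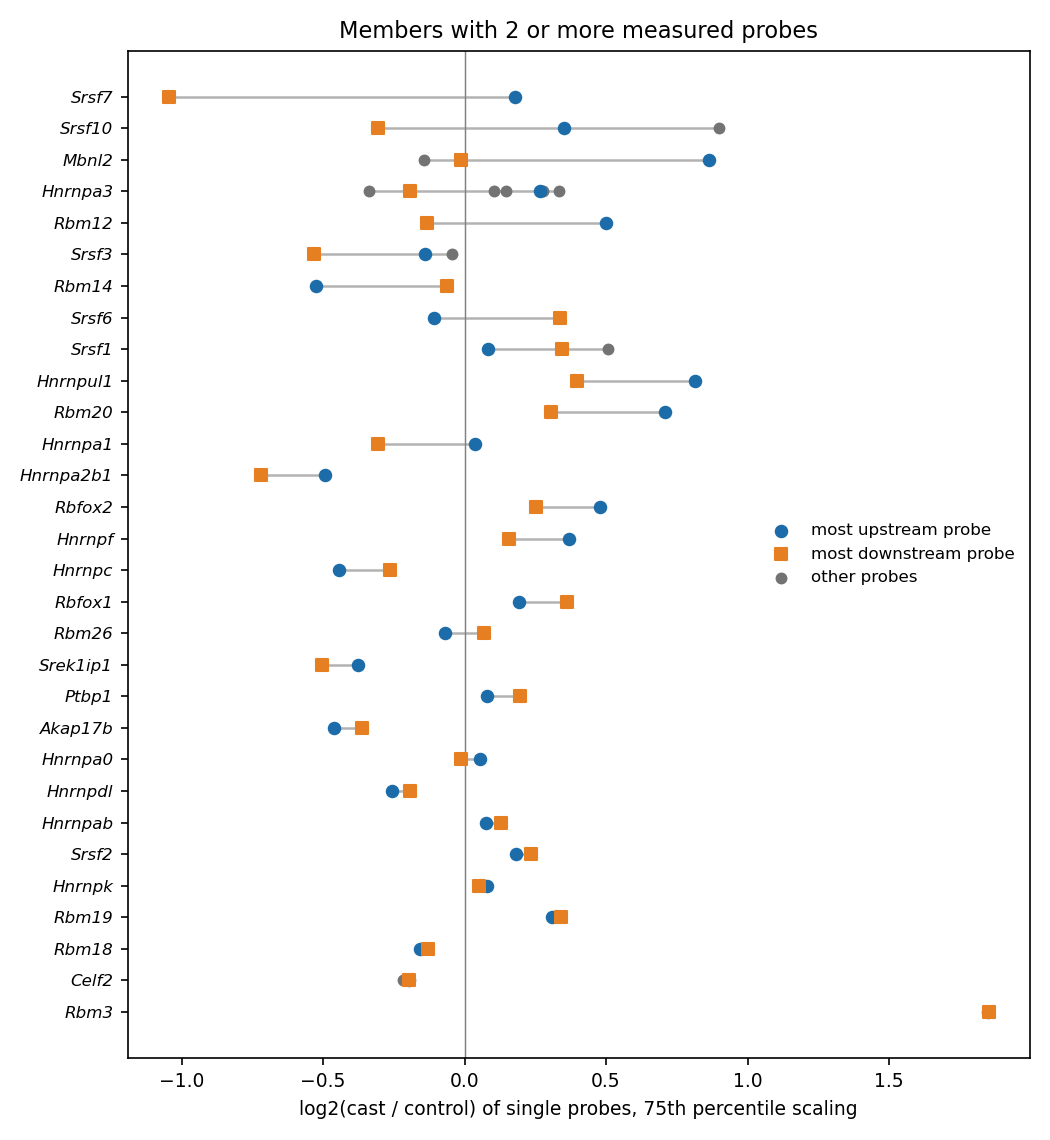
Log2(cast/control) of single probes for the 30 members with at least 2 measured probes, sorted by range, with the most upstream probe as a blue circle, the most downstream as an orange square and others in grey. Srsf7, Srsf10 and Mbnl2 have the widest ranges, 1.22, 1.21 and 1.01, while the measured probes of Rbm3 coincide at 1.85.

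Other genes of the pathway gave a similar picture. All 52 genes of the snRNPs and the spliceosome core were measured, with a median log2 ratio of 0.06. Above 0 were 31 of them (59.6%, against 47.1% of all genes). Only Snrnp48, a protein of the minor spliceosome (69.2 in control and 130 in cast, 0.91), and Snrpn, a Sm protein best known from brain (301 and 179, -0.75), were past 1.5-fold. The mean over the probes of Snrpn was -0.57, short of it. Snrnp70 of the U1 particle (0.48) and Snrpb (-0.34) came next. Past 1.5-fold were thus 3.85% of this list, against 15.2% of all genes. Of 10 kinases that phosphorylate SR proteins or relate to those that do, 8 (80%) were above 0 and the median was 0.15. Srpk3, the muscle-specific SR protein kinase, gave 720 and 968 (0.43), and Clk4 gave 0.29. Dyrk1b gave 225 and 148 (-0.61), the only one past 1.5-fold (10%, against 15.2% of all genes), and Clk3 gave -0.07. Dyrk1b was short of 1.5-fold with normexp (-0.52), median scaling (-0.53), no scaling (-0.27) and spike-in scaling (-0.26). The mean over its probes was -0.71.

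Among 44 measured RNA-binding regulators outside the families above, the median was 0.07. Above 0 were 28 (63.6%, against 47.1% of all genes). Cirbp, given above, and nucleolin (Ncl, 1433 in control and 2493 in cast, log2 ratio 0.80) were past 1.5-fold on the upper side. On the lower side was Qk, the quaking protein, which acts in splicing and RNA stability in muscle and glia (998 and 639, -0.64). The mean over the probes of Qk was only -0.27. Raver2 gave -0.56. In the exon junction complex and nonsense-mediated decay, 16 genes had a median of 0.10 and none was past 1.5-fold, against 15.2% of all genes. Upf3b (0.42) and Acin1 (0.40) were highest, Sap18 (-0.55) and Upf1 (-0.25) lowest. Of the genes in this and the foregoing paragraph given below 0, Clk3 and Upf1 were above 0 when left unscaled, and so was Snrpb, barely, on the spike-in scale.

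Muscle genes with regulated exons were read at the level of the whole gene, since the array gives no exon inclusion. Of 28 measured, 11 were above 0 (39.3%, against 47.1% of all genes), with a median of -0.05 that turned to above 0 with no scaling. Pdlim3, a Z-disc protein, gave 6826 in control and 14381 in cast (log2 ratio 1.08), Nrap gave 6991 and 11271 (0.69), and dystrophin (Dmd) gave 274 and 437 (0.67). On the other side were Pdlim7 (2255 and 1158, -0.96) and beta-tropomyosin (Tpm2, 16002 and 9244, -0.79). This list shares Mbnl1 and Mbnl2 with the members. Its 5 genes past 1.5-fold are 17.9% of 28, against 15.2% of all genes.

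**Figure D4:**
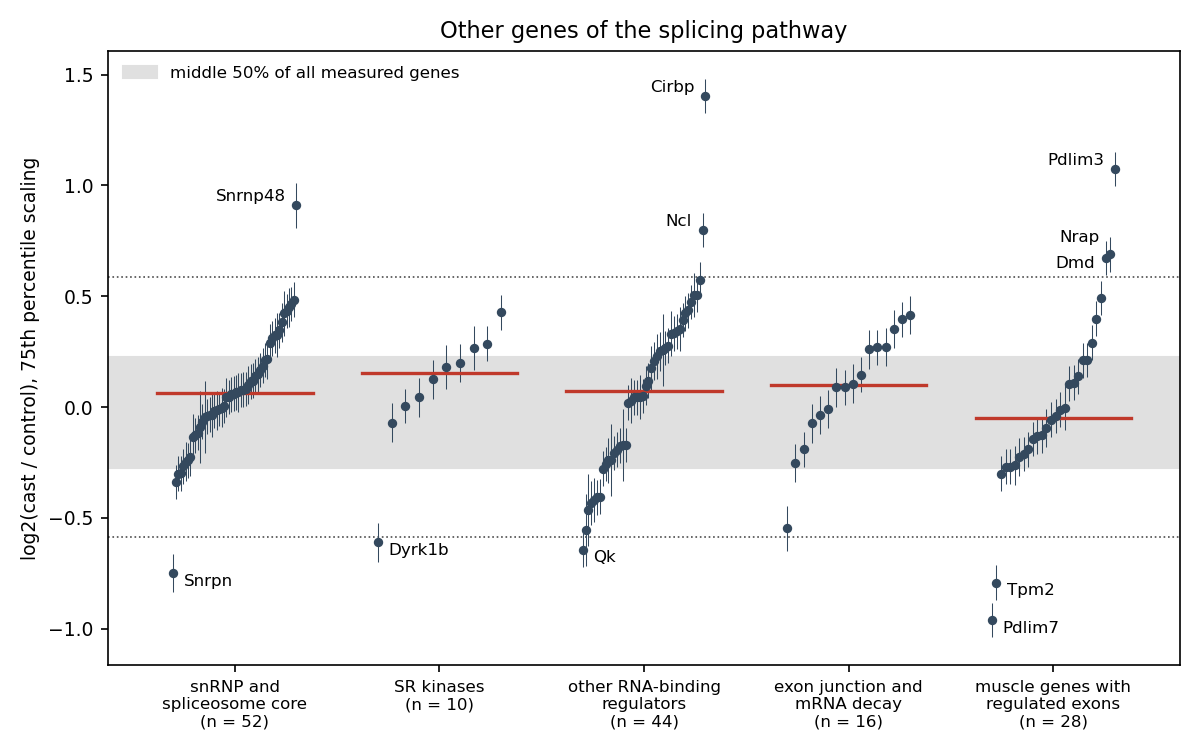
Log2(cast/control) of measured genes in 5 other lists of the splicing pathway, 1 point per gene with the spot-level SD as error bar, the list median in red, 1.5-fold as dotted lines and the middle 50% of all genes in grey. The list medians lie between -0.05 and 0.15, and Cirbp stands highest at 1.40; medians this near 0 move with the scaling.

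Further genes of these families have other names on the array and fall outside the rule. There were 10 of them, and 5 were measured. They were Celf4 (45.8 in control and 34.5 in cast, log2 ratio -0.41), Ptbp3 (0.26), Rbm33 (0.21), Rbm12b2 (0.13) and Rbm48 (-0.02). None was past 1.5-fold, against 15.2% of all genes. Celf3, Celf5, Celf6, Rbfox3 and Rbm8a2 were not well above background on both arrays.

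Over the whole array, the share of probes well above background was 60.6% in control and 56.7% in cast, and no probe was saturated. The 11 muscle fibre markers were all measured, with 4 above 0 and 7 below. Their summed scaled signal was 289524 in control and 248933 in cast, which fits the labelled tissue. Markers of other cells also differed. At the 75th percentile scaling all 7 fibroblast markers were lower on the cast array, summing to 23032 and 13718. They were uneven, with Col1a1 (-1.76), Col1a2 (-1.69), Col3a1 (-0.80) and Lum (-0.68) lowest. Dcn (-0.29) was less so, and Pdgfra (-0.07) and Ly6a (-0.04) were near 0. Of the macrophage markers, 6 of 7 measured were above 0 (777 and 879). Satellite cell markers (5 of 7 measured, without Myf5 and Calcr) summed to 455 and 912, with 3 above 0. Cdh15 alone went from 316 to 807, while Pax7 (0.08) and Chodl (0.07) were near 0 and Vcam1 (-0.72) and Fgfr4 (-0.46) below it. Endothelial markers (7 of 7) summed to 1411 and 1252, with 2 above 0, the higher being Cldn5 (0.80), and 5 below. Schwann cell markers (7 of 7) summed to 1015 and 999, with 3 above 0 and 4 below. Fat cell markers (4 of 5) summed to 6128 and 5342, all below 0. Erythroid markers (3 of 5) summed to 16596 and 19196, all above 0. Of 7 neuron markers, 2 were measured (1044 and 686). The part of these cells in the members' differences was not tested.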

How the data were processed

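The deposited scanner files hold 44397 spot intensities per array. The submitters' processing notes name Agilent Feature Extraction 9.5. The processed intensity is background-subtracted and detrended within the array, per the file headers, and is not scaled between arrays. A table deposited for the series as a whole also holds an intensity. Comparison showed it to equal 100 times the processed signal over its 75th percentile, all spots included, to within 0.50 because some values are rounded. Its column medians were 9.00 for control and 8.70 for cast. Both arrays share 1 slide and 1 scan.

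Control spots and non-uniform spots (2 in control, 9 in cast) were dropped, and replicate spots were averaged. Each array's 75th percentile over non-control probes (385 and 486) was subtracted after log2. A probe was measured when over 0.5 of its spots were well above background on both arrays, and a gene took its brightest probe. Probes were named through their accession in a RefSeq gene table (assembly GRCm38.p6, names only) for 26055 of 39429 probes, or through a unique synonym for 930. The spot-level SD came from 259 replicated probes, in 4 classes of signal.

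With 1 array per group there is no test. Named were all measured muscle regulators, PTB and STAR genes, the 5 highest and 5 lowest SR (with SR-related), hnRNP and Rbm genes, members past 1.5-fold, genes whose probes lay 0.3 on either side of 0, and the 2 ends of each other list. Members and lists were chosen with earlier results of these data known. The alternatives were 5 other scalings (none, median, spike-in, quantile, loess), normexp background (limma 3.58.1 in R 4.3.3), the deposited table, 3 other filters, the mean of probes and stricter families. The calculation of gene-level log2 ratios was tested on data simulated from the control array by adding known changes and noise.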

Additional observations from a re-analysis of the deposited data

How the results depend on the processing

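No paired analysis was possible because each group is 1 pooled array. With no scaling the median log2 ratio was 0.45 for all members, 0.53 for Rbm, 0.34 for SR with SR-related, 0.40 for hnRNP, 0.47 for muscle regulators and 0.40 for PTB and STAR genes. Spike-in scaling gave 0.46, 0.54, 0.35, 0.41, 0.48 and 0.41. At 1.5-fold, 24 members were higher and 1 lower with no scaling, and 25 and 1 with spike-in scaling; 3 were 2-fold higher with either. The muscle regulators' median was 0.26 with the mean of probes and 0.016 with quantile normalization. That of PTB and STAR was -0.40 at or above the median level, where fewer genes remain, and -0.065 without a filter. At or above the median level, 2 members were 1.5-fold higher and 0 were 2-fold lower. Without a filter 2 were 2-fold lower, and with normexp 0. Of the members past 1.5-fold, the mean of probes kept 2 of 4 higher (not Srsf10 and Rbm20) and 3 of 3 lower. It also brought Hnrnpul1 (0.61) and Hnrnpa2b1 (-0.61) past 1.5-fold, for 3 higher and 4 lower. Normexp kept 3 of 4 higher (not Rbm20, at 0.51) and 2 of 3 lower (not Srsf11, at -0.53). Leaving out Rbm3, an alternative chosen after seeing the data, left 0 members 2-fold higher and a median of 0.10. Dim signal limits Hnrnph3, which went from -1.36 to -0.63 with normexp, and also Rbm41, Rbm47 and Rbm4b, which turned from 0.20, 0.24 and 0.13 to -0.06, -0.01 and -0.05.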
